A study of Mus musculus with 18 samples.

Results

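The RNA of 6 genes of fat breakdown was followed through 3 adipose depots: Pnpla2 (adipose triglyceride lipase, ATGL), Lipe (hormone-sensitive lipase), Mgll (monoglyceride lipase), Abhd5 (CGI-58, the co-activator of ATGL), G0s2 (an inhibitor of ATGL) and Pnpla3 (a relative of ATGL). They were picked by symbol for their place in the pathway, and all 6 were present among the 25124 genes of each count table and passed the filter on low counts in every comparison. The samples were inguinal (iWAT) and epididymal (eWAT) white adipose tissue and brown adipose tissue (BAT) of male WT mice and of C6KO mice, which lack caspase-6 in the whole body, with 3 libraries in each of the 6 groups and 18 in all. Both genotypes shared the C57BL/6J background, descended from heterozygous parents and ate a high fat diet (HFD, 60% of calories from fat) for 12 weeks, begun at 10 to 14 weeks of age, so no lean mice stand beside them. The knockout was not limited to adipocytes, and whole tissue was sequenced, so that fewer cells of a type and less RNA per cell cannot be told apart. The labels call the replicates biological without naming an animal for each, and p-values measure the spread between these libraries. The study's methods state a fast before tissue collection for other cohorts on the same diet, in sentences that do not name the WT and C6KO mice.

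Adipocytes store fatty acids as triglyceride in lipid droplets, and lipolysis releases them again. ATGL removes the initial fatty acid, hormone-sensitive lipase then cleaves diglyceride, and monoglyceride lipase frees the last fatty acid and glycerol. CGI-58 waits on the droplet coat, bound to perilipins, and activates ATGL when catecholamine signals phosphorylate the coat, while G0S2 binds ATGL and blocks it. PNPLA3 resembles ATGL in sequence and also binds CGI-58, and its RNA is known to follow insulin and feeding.

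Casp6, the deleted gene, was measured to check the labels. It stood at 289 to 342 counts in iWAT WT and 99 to 141 in iWAT C6KO, 322 to 422 and 74 to 124 in eWAT, and 127 to 145 and 26 to 71 in BAT, so every C6KO library lay below every WT library of its depot. Reads on Casp6 remained in every C6KO library, and the deposited counts do not show which exons carried them. In these tests a gene was called when its Benjamini-Hochberg adjusted p in edgeR's quasi-likelihood test was below 0.05 and its fold change at least 1.5, and Casp6 itself was called in eWAT (adjusted p = 0.0132, lost without any 1 of the WT libraries at 0.0645 to 0.0939) and not in iWAT (0.0751) or BAT (0.0671). Total counts were 16506034 to 19139694 in the white depots and 7803108 to 12428683 in BAT, and the 6 genes together took 0.273 to 1.09% of a library's counts. Library 3 of iWAT C6KO stood apart, with a summed level of 9 macrophage markers of 1409 CPM (counts scaled to library size) against 440 and 456 in the other 2. Among BAT libraries the summed level of 8 skeletal muscle markers ran from 43.1 to 33148 CPM.

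The pair of patatin-like genes Pnpla2 and Pnpla3, whose C6KO estimates below had opposite signs in every depot (in eWAT that of Pnpla3, -0.23, turned to 0.25 without C6KO library 3), had RefSeq start sites at the positions the count tables give. The 250 bases upstream of each are printed from the RefSeq promoter table (build GRCm38.p6, the assembly that mm10 names), 5′ to 3′ on the gene's own strand, with each GC box (GGGCGG, searched on both strands), the kind of element bound by SP1, in capitals. Pnpla2 upstream, chr7:141454938-141455187, plus strand, and Pnpla3 upstream, chr15:84167566-84167815, plus strand:
Pnpla2: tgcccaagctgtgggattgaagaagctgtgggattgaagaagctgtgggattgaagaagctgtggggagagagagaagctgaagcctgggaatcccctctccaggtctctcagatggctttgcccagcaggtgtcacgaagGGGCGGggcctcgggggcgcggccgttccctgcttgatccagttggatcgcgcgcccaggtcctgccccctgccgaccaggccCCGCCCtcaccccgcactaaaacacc
Pnpla3: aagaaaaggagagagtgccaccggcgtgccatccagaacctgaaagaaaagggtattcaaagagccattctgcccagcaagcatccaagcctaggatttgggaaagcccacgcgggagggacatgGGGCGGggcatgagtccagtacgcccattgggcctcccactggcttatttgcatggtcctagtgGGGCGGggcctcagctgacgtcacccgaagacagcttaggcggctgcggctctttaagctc

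Pnpla2 held 2 GC boxes, 1 on each strand, which begin 109 and 26 bases before the start site. Pnpla3 held 2 on its own strand, which begin 125 and 61 bases before it. All 6 genes had an entry in the table, and the windows upstream of Lipe, Mgll, Abhd5 and G0s2 held 6, 1, 1 and 1 GC boxes, with those of Lipe partly overlapping. The Mgll window is that of the start in the iWAT table. The window at the start that the eWAT and BAT tables keep held 0, as did a second window in the table for Lipe. Among all 32851 windows of that length, 32.74% held at least 1. The motif of the PPARγ and RXR pair, 2 copies of AGGTCA with 1 base of any kind between them, was found on neither strand of the 6 windows and in 0.03% of all windows. A match describes letters and shows no binding. Because the PPARγ and RXR motif is that rare among all windows, its absence from these 6 says nothing about binding either.

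The 6 genes lie on 5 chromosomes of mm10. Pnpla2 spans chr7:141455188-141460743 (plus strand) and Lipe chr7:25379527-25395987 (minus strand). Mgll ends at chr6:88828360 on the plus strand, Abhd5 spans chr9:122351616-122381523 (plus), G0s2 chr1:193272160-193273188 (minus) and Pnpla3 chr15:84167816-84189521 (plus). In the GENCODE annotation of that build, exons of 4 of them share bases with another gene: Lipe, Mgll (167 bases, Gm26588) and Abhd5 (950 bases, A730085K08Rik) with an antisense gene, and Pnpla3 with Gm49513 on its own strand (105 bases).

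The genes differed widely in level. Levels can be compared between genes only per length, so RPKM values were used, which are reads per kilobase of transcript scaled to library size (here with TMM factors over the 18 libraries). In iWAT of WT mice Pnpla2 reached 1018 ± 96.0 RPKM (SD, n = 3), followed by Lipe at 687 ± 53.8, Mgll at 480.1 ± 38.4, G0s2 at 274 ± 50.9, Pnpla3 at 87.6 ± 22.8 and Abhd5 at 50.9 ± 5.16. No neighbours in that order overlapped. The co-activator was thus the scarcest of the 6 transcripts in iWAT and the lipase it serves the most abundant. For Pnpla2 the transcript kept in each depot was NR_028142 (2707 bases), and its RPKM and the ratios below rest on that length.

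**Figure D1:**
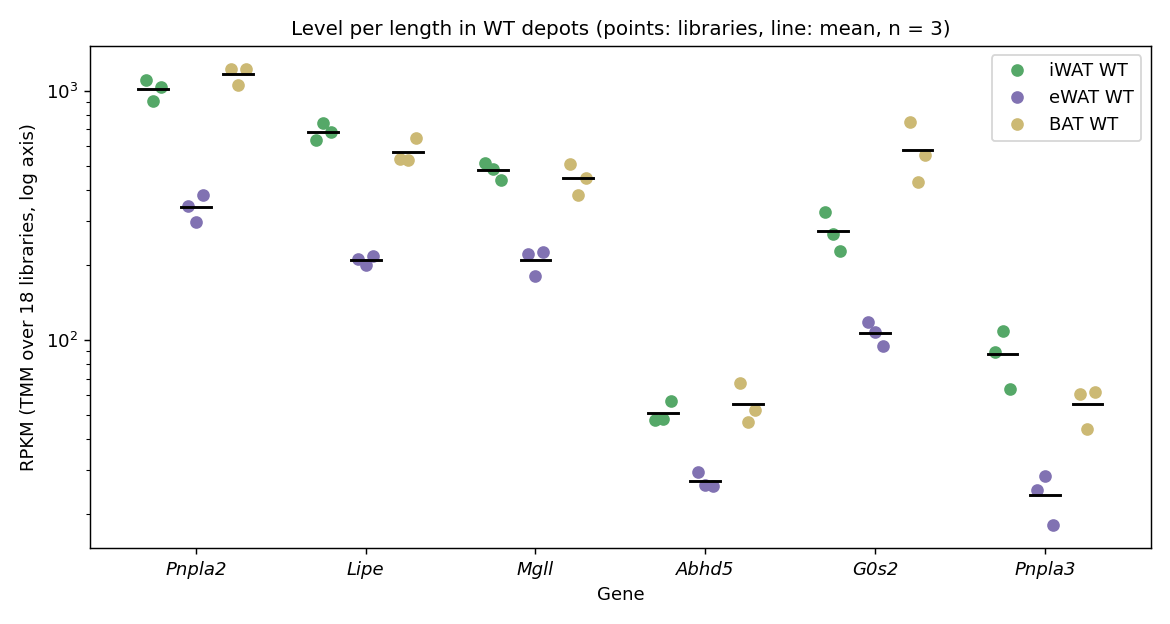
Level of each gene in RPKM (log axis) in the 3 WT libraries of iWAT, eWAT and BAT, with points for libraries and lines for means. All 6 genes lay lowest in eWAT, and G0s2 alone had all 3 BAT libraries above all 3 iWAT libraries.

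In eWAT of WT mice Pnpla2 again led, at 342 ± 43.4 RPKM, with Lipe at 209.9 ± 8.31, Mgll at 209.6 ± 24.8, G0s2 at 107 ± 11.8, Abhd5 at 27.2 ± 2.10 and Pnpla3 at 23.8 ± 5.31. Lipe and Mgll did not differ beyond their spread there, nor did Abhd5 and Pnpla3. In BAT of WT mice Pnpla2 stood at 1169 ± 99.1 RPKM, G0s2 at 578 ± 160.3, Lipe at 568 ± 66.4, Mgll at 446 ± 64.0, Abhd5 at 55.4 ± 10.4 and Pnpla3 at 55.4 ± 10.1. The BAT libraries of G0s2 overlapped those of Lipe and Mgll, and Abhd5 and Pnpla3 overlapped each other, so G0s2 was not separable from the 2 later lipases there while Pnpla2 lay above all.

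The depots of WT mice were compared in one edgeR fit of all 18 libraries. The labels do not say which libraries of different depots come from the same mouse, and the fit took all as independent. All 6 genes were lower in eWAT than in iWAT and all 6 were called, where 12.9% of all 15866 genes tested were called lower and 12.8% higher. Lipe fell by 1.71 on the log2 scale (SE 0.144, adjusted p = 1.28e-06, edgeR), Pnpla2 by 1.57 (SE 0.161, adjusted p = 6.64e-06), G0s2 by 1.36 (SE 0.223), Mgll by 1.31 (SE 0.185) and Abhd5 by 0.90 (SE 0.160), with no overlap between the libraries of any of them, as for 28.7% of all genes. Pnpla3 fell by 1.88 (SE 0.628, adjusted p = 0.0350, edgeR), and its call was lost when WT library 1 or 2 of iWAT or any WT library of eWAT was left out, with adjusted p between 0.0743 and 0.114. It was also lost without a filter on low counts (adjusted p = 0.0546, edgeR). The summed level of 8 adipocyte markers was also lower in eWAT, at 11290 to 13400 CPM against 34140 to 37540 CPM in iWAT, and 9 macrophage markers summed to 6216 to 7531 against 1839 to 2116 CPM. Their part in the depot difference was not tested. For Mgll the table of iWAT keeps a longer transcript (NM_001166251, 3981 bases) than the tables of eWAT and BAT (NM_011844, 3666 bases), so its contrasts with iWAT set unlike exons side by side.

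Between BAT and iWAT of WT mice 1 of the 6 genes was called. G0s2, the inhibitor, stood at 432 to 749.5 RPKM in BAT and 227 to 328 in iWAT, 1.08 higher on the log2 scale (SE 0.221, adjusted p = 0.000802, edgeR), where 20.1% of genes were called higher and 18.7% lower. Pnpla2 differed by 0.20 with a 95% interval of -0.13 to 0.53, Abhd5 by 0.12 (-0.21 to 0.46), Mgll by -0.22 (-0.61 to 0.16), Lipe by -0.27 (-0.57 to 0.02) and Pnpla3 by -0.66 (-1.97 to 0.65). These intervals leave room for differences of the size of their bounds. Pnpla3 was called lower in BAT when the 9 WT libraries were fitted alone (adjusted p = 0.0353, edgeR). Per ATGL transcript the inhibitor stood higher in BAT, with 0.410 to 0.611 G0s2 per Pnpla2 (reads per kilobase) in the BAT WT libraries against 0.219 to 0.297 in iWAT WT. Against eWAT, 5 of the 6 genes were called higher in BAT, where 25% of all genes were called higher and 23.6% lower. G0s2 differed most, by 2.44 (SE 0.231, adjusted p = 1.435e-07, edgeR), then Pnpla2 by 1.77, Lipe by 1.44, Mgll by 1.09 and Abhd5 by 1.03. Pnpla3 was 1.22 higher (SE 0.618, adjusted p = 0.108, edgeR) with no overlap between the WT libraries (as for 32.3% of genes), and it was called without library 2 or 3 of eWAT C6KO (adjusted p = 0.0411 and 0.0304) and with the 9 WT libraries alone (0.000986).

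Pnpla2 was the gene of the 6 whose C6KO libraries lay above WT in every depot. In iWAT it was measured at 2965, 2441 and 2787 CPM (TMM within the depot) in the WT libraries and at 5200.4, 4634 and 3750.5 CPM in C6KO. In eWAT the WT libraries had 1018.5, 893 and 1147 CPM and the C6KO libraries 2039, 1679.5 and 1558. In BAT the WT libraries had 2939, 2690 and 3009 CPM and the C6KO libraries 4056.5, 4512 and 4237. The lowest C6KO library was above the highest WT library in each depot, and within iWAT C6KO library 3 was the lowest.

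Those levels gave Pnpla2 log2 fold changes of 0.73 in iWAT (SE 0.178, 95% interval 0.33 to 1.13), 0.79 in eWAT (SE 0.151, 0.45 to 1.12) and, for BAT, 0.57 (SE 0.167, 0.19 to 0.95). None was called by edgeR, with adjusted p of 0.158, 0.0524 and 0.162. DESeq2 called Pnpla2 in all 3 depots, with adjusted p of 0.00178, 1.62e-05 and 0.00281. In BAT the edgeR fold of 1.48 also missed the limit of 1.5, which the DESeq2 log2 estimate of 0.588 narrowly passed. In iWAT edgeR called it without C6KO library 3 (0.83, adjusted p = 0.0136), and in eWAT without C6KO library 2 (0.83, adjusted p = 0.0470). Those fits called 8.64% and 2.30% of all genes, against 0.0275% and 0.746% with all libraries. With all libraries edgeR called it in iWAT in the fit of 18 (0.0277, 2.31% of genes called). In eWAT it was called without a low-count filter (0.02205, 1.64%) and with replicate number as a block (0.0302, 2.78%). The study singled out Pnpla2 from these same libraries, so its direction here is not independent evidence of an increase.

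**Figure D2:**
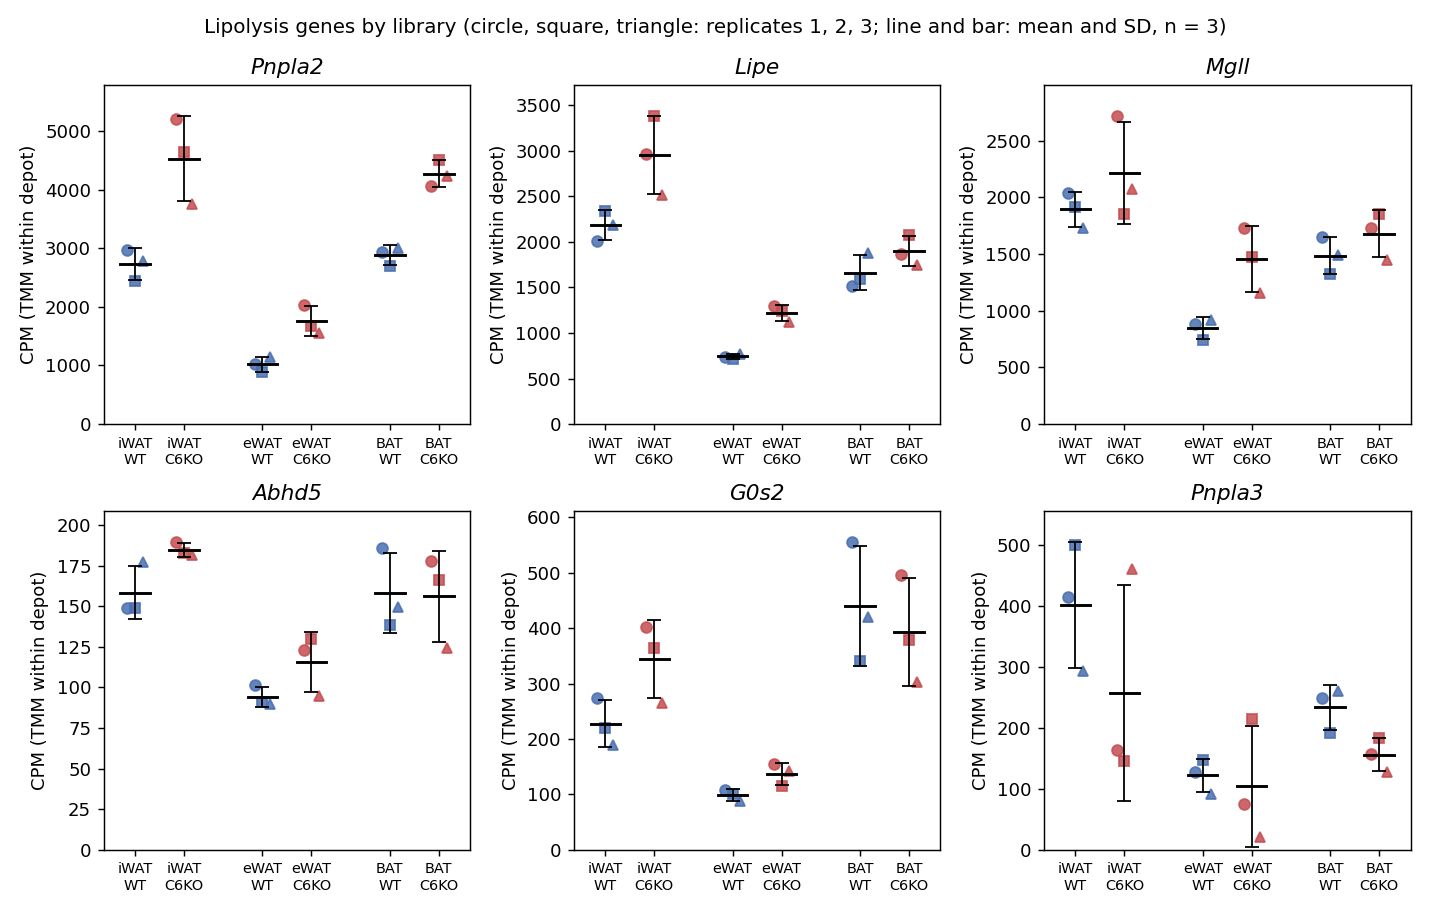
CPM of each of the 6 genes (TMM within the depot, linear axes from 0) in every library of the 6 groups, with symbols for replicates and lines and bars for mean and SD (n = 3). Pnpla2 in C6KO sits above WT in all 3 depots, while Pnpla3 in iWAT and eWAT C6KO spreads over a range wider than that of WT.

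Lipe, the diglyceride step, rose in eWAT of C6KO mice. Its WT libraries there had 740.5, 716 and 769.95 CPM and its C6KO libraries 1299, 1238 and 1119, a narrow spread in both groups with no overlap. The log2 fold change was 0.72 (SE 0.116, adjusted p = 0.0432, edgeR), and DESeq2 gave an adjusted p of 3.77e-08. Lipe was the only one of the 6 called in eWAT, where 0.537% of the 14889 genes tested were called higher and 0.208% lower. The call was lost without WT library 1, 2 or 3 or C6KO library 1 or 3, with edgeR adjusted p between 0.0529 and 0.187, and in a fit of all 18 libraries (adjusted p = 0.0896).

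In iWAT the Lipe libraries lay at 2015.5, 2343 and 2187 CPM in WT and 2968, 3379 and 2519 in C6KO, again without overlap, for a log2 difference of 0.44 (SE 0.167, adjusted p = 0.249, edgeR). In BAT they overlapped, at 1515 to 1879 CPM in WT and 1749 to 2072 in C6KO, with a difference of 0.19 (95% interval -0.21 to 0.59). The exons of Lipe share 918 of 5886 annotated bases with 4732471J01Rik on the opposite strand. The strandedness of the counting is not given in the sources used here, so reads of this pair cannot be told apart.

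Mgll, the last step, had its highest estimate in eWAT. Its WT libraries there had 886, 738 and 916 CPM and its C6KO libraries 1733.5, 1474.5 and 1156.5, all higher than in WT. The log2 difference of 0.78 (SE 0.167) missed the threshold in edgeR (adjusted p = 0.0588) and passed it in DESeq2 (adjusted p = 0.000171). In iWAT the groups overlapped (1733 to 2034 CPM in WT, 1849 to 2720 in C6KO), with a difference of 0.23 (95% interval -0.19 to 0.64). In BAT they overlapped as well (1319 to 1654 and 1451 to 1855.5 CPM), with 0.18 (-0.24 to 0.59).

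Abhd5, the co-activator, was called in no depot. In iWAT it ran from 149 to 177 CPM in WT and from 182 to 189.8 in C6KO, without overlap, but the log2 difference was 0.22 (SE 0.121, adjusted p = 0.391, edgeR). In eWAT the libraries had 89.5 to 101 CPM in WT and 94.9 to 129.8 in C6KO and overlapped, with a difference of 0.30 (95% interval 0.01 to 0.59). In BAT they had 139 to 186 and 124 to 178 CPM, a difference of -0.02 (-0.45 to 0.41) with a sign that depended on the setting.

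G0s2, the inhibitor, had positive estimates in the white depots and a negative one in BAT. In iWAT its levels were 273, 220.2 and 189 CPM in WT and 402, 364 and 265 in C6KO, with the lowest C6KO library just under the highest WT library. In eWAT they were 108, 100.02 and 87.7 CPM in WT and 154, 115 and 143 in C6KO, without overlap. In BAT they were 556.5, 342 and 421 CPM in WT and 496, 379 and 303 in C6KO, fully mixed. The log2 differences were 0.60 (SE 0.195), 0.48 (SE 0.133) and -0.16 (SE 0.245), with edgeR adjusted p of 0.204, 0.105 and 0.817. G0s2 was called in iWAT without C6KO library 3 (0.73, adjusted p = 0.0323) and in eWAT without C6KO library 2 (0.60, adjusted p = 0.0431). Those fits called 8.64% and 2.30% of all genes.

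Pnpla3 was the gene of the 6 with a negative estimate in all 3 depots, and the one that varied most among C6KO libraries. In iWAT the WT libraries had 414, 499 and 294 CPM and the C6KO libraries 164, 146 and 461. In eWAT the WT libraries had 127, 146 and 92.3 CPM and the C6KO libraries 75.7, 214.5 and 21.6, a 9.92-fold range within 1 group. In BAT the WT libraries had 249, 191 and 260.4 CPM and the C6KO libraries 157, 183 and 128. Both white depots held 1 C6KO library at or above most WT values and 2 below all of them, whereas in BAT the highest C6KO library lay under the lowest WT library.

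The log2 differences of Pnpla3 were -0.65 in iWAT (SE 0.470, 95% interval -1.77 to 0.48), -0.23 in eWAT (SE 0.851, -2.47 to 2.02) and, for BAT, -0.58 (SE 0.195, -1.02 to -0.14), and none was called (edgeR adjusted p of 0.534, 0.930 and 0.225). In iWAT the result depended on C6KO library 3, the library with the high macrophage sum. Without it Pnpla3 was called lower, by -1.40 (edgeR adjusted p = 0.00778), in a fit where 8.64% of genes were called against 0.0275% with it. In eWAT the estimate ran from -1.31 without C6KO library 2 to 0.25 without C6KO library 3. The interval of Pnpla3 in eWAT is the widest of the 6 and spans 0, so it does not settle the sign of a change there.

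**Figure D3:**
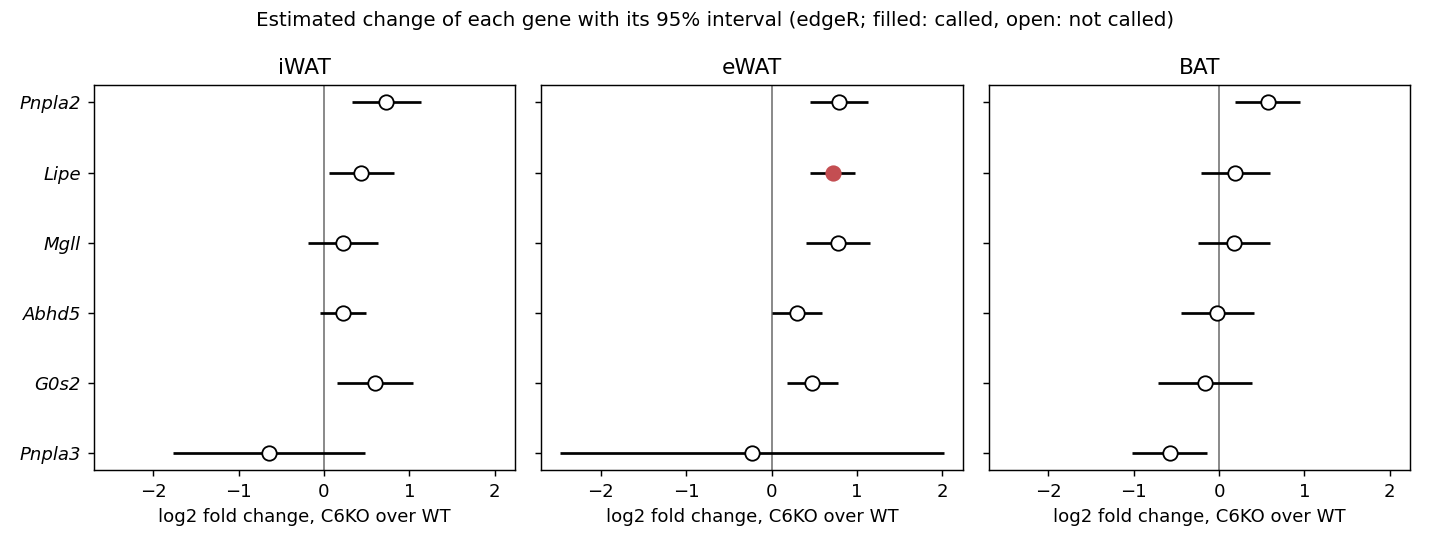
Log2 fold change of C6KO over WT for the 6 genes in iWAT, eWAT and BAT, with 95% intervals from edgeR. Lipe in eWAT is the only filled (called) point, and the interval of Pnpla2 lies above 0 in each depot.

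Counted over the 6 genes, edgeR called 0 for iWAT, 1 for eWAT (Lipe, higher) and 0 for BAT, beside 0.0275%, 0.746% and 1.24% of all genes called in either direction. Of all genes, 0.00688% were called higher and 0.0206% lower in iWAT, whereas BAT had 0.169% called higher and 1.07% called lower. Where p under 0.05 was left unadjusted, with a fold of at least 1.5, iWAT had 2 of the 6 higher (Pnpla2 and G0s2), eWAT 3 (Pnpla2, Lipe and Mgll) and BAT 0, where 2.61%, 4.2% and 2.62% of genes were, and 0 of the 6 were lower in any depot, where 6.72%, 2.79% and 6.27% of genes were. Pnpla2 (fold 1.48, unadjusted p = 0.00768, edgeR) and Pnpla3 (fold 0.669, unadjusted p = 0.0150, edgeR) narrowly missed that fold limit in BAT. DESeq2 called 1, 3 and 1 of the 6 higher. Libraries of C6KO lay wholly above WT for 3 of the 6 in iWAT, 4 in eWAT and, in BAT, 1, beside 10.9%, 12% and 8.07% of genes, and wholly below for Pnpla3 in BAT, beside 12.1% (12.2% in iWAT and 11.2% in eWAT, with none of the 6). The 6 genes had a median log2 difference of 0.33 (iWAT), 0.60 (eWAT) and 0.08 (BAT). Over all genes tested the medians were 0.03, -0.01 and -0.03. As 6 chosen genes these are counts and carry no test.

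The white depots of C6KO mice also differed in their cell type markers. The 8 adipocyte markers summed to 43630 to 49650 CPM in iWAT C6KO against 34140 to 37540 in WT, and to 15810 to 22170 against 11290 to 13400 in eWAT, with 7 of 8 markers higher without overlap in each depot and none at 0. In BAT the ranges crossed (16720 to 22750 and 17630 to 26330 CPM). Of the 8 markers, 5 had positive and 3 negative log2 estimates in BAT (-3.35 to 1.53), and Lep was called lower. The 9 macrophage markers summed to 440 to 1409 CPM in iWAT C6KO against 1839 to 2116, to 4455 to 5032 against 6216 to 7531 in eWAT, and to 257 to 402 against 723 to 950 in BAT, with 9, 8 and 8 of the 9 lower without overlap. The part of the macrophage markers in the differences of the 6 genes was not tested.

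The 6 genes were therefore also expressed relative to the 8 adipocyte markers of the same library, an alternative chosen after these sums were seen. These markers were Adipoq, Lep, Plin1, Cidec, Retn, Cfd, Car3 and Fabp4. Plin1 and Cidec are themselves droplet genes, and Plin1 was called higher in eWAT. A ratio to such markers cannot tell a change in the share of adipocytes from a change in marker RNA per adipocyte. Relative to the summed markers, Pnpla2 kept C6KO above WT without overlap in iWAT (0.31 on the log2 scale) and BAT (0.67), with the smallest p of 0.1 that an exact two-sided permutation test of 3 against 3 can give. In eWAT the Pnpla2 groups overlapped (0.12, exact permutation p = 0.3). Lipe, called in eWAT on the usual scale, differed there by 0.04 (exact permutation p = 0.7), and Mgll by 0.10 (exact permutation p = 0.3). Abhd5 in eWAT turned to -0.38, with every C6KO library below WT (exact permutation p = 0.1). Pnpla3 in BAT was at -0.48 on the summed scale, without overlap (exact permutation p = 0.1). Relative to the mean log2 level of the markers, the values were 0.26, 0.83, 0.09, 0.02, 0.07 and -0.41 in the same order, and Pnpla3 in BAT was at -0.32 with overlapping groups (exact permutation p = 0.6). Lep, called lower in BAT, weighs as much as any other marker in that mean, and its part in the BAT values was not tested.

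The difference in the C6KO effect between depots was tested directly as an interaction in the fit of all 18 libraries. None of the 6 genes was called in any of the 3 contrasts, in which 0%, 0.183% and 0.536% of genes were called (eWAT minus iWAT, BAT minus iWAT, BAT minus eWAT). The eWAT minus iWAT contrast called 0 genes in edgeR, with 479 genes (3.02%) higher and 168 (1.06%) lower when p under 0.05 was left unadjusted at that fold, and 0.0682% of genes in DESeq2. For Pnpla2 the 3 differences were 0.06 (95% interval -0.41 to 0.53), -0.17 (-0.64 to 0.30) and -0.23 (-0.70 to 0.24). The intervals that excluded 0 belonged to G0s2 for BAT minus iWAT (-0.77, adjusted p = 0.402, edgeR), Lipe for BAT minus eWAT (-0.53, adjusted p = 0.293), and Mgll for eWAT minus iWAT (0.56, adjusted p = 0.902) and BAT minus eWAT (-0.62, adjusted p = 0.367). None of these differences between depots held after adjustment over all genes.

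A ratio of 2 genes in the same library does not depend on library scaling, so the partners of ATGL were also set against Pnpla2. Abhd5 per Pnpla2 (reads per kilobase) was 0.0434, 0.0525 and 0.0548 in iWAT WT and 0.0315, 0.0340 and 0.0418 in C6KO. In eWAT it was 0.0859, 0.0882 and 0.0673 in WT and 0.0520, 0.0667 and 0.0525 in C6KO. In BAT it was 0.0546, 0.0445 and 0.0429 in WT and 0.0378, 0.0318 and 0.0253 in C6KO. The co-activator was scarcer per ATGL transcript in every C6KO library than in any WT library of its depot, though in eWAT the nearest pair differed by little. The log2 differences were -0.49 (SE 0.160), -0.50 (SE 0.171) and -0.59 (SE 0.200), each at an exact permutation p of 0.1, the smallest possible with 3 against 3, and at 0.188 after Benjamini-Hochberg adjustment over the 15 ratio tests made. Pnpla2 is the denominator and was singled out from these libraries, so the direction of the ratio is not independent evidence either.

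**Figure D4:**
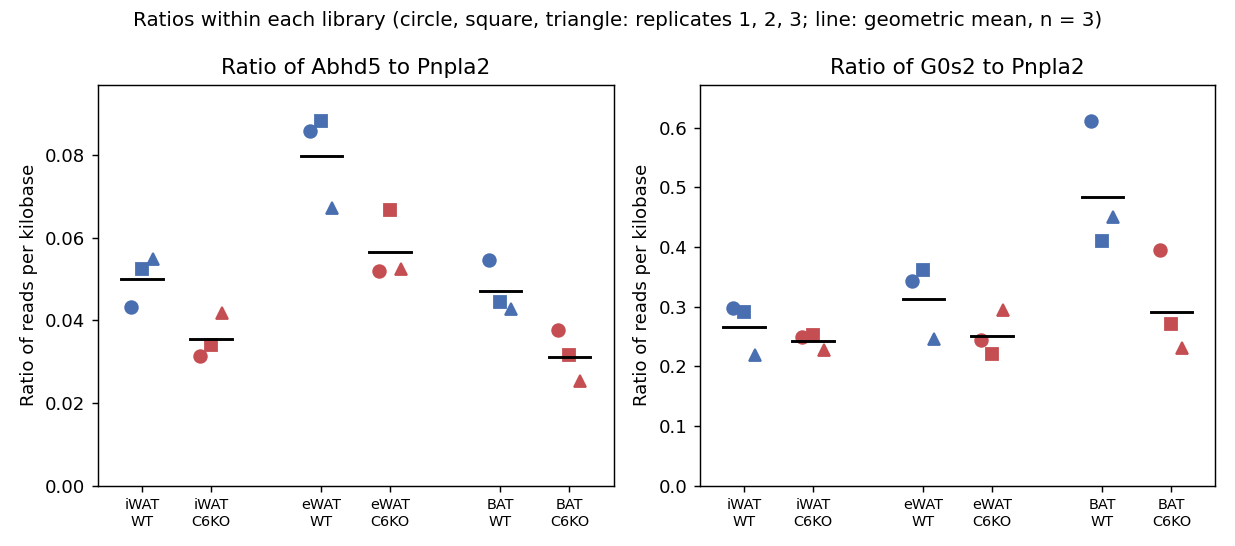
Ratios of Abhd5 to Pnpla2 and of G0s2 to Pnpla2 (reads per kilobase, linear axes from 0) in every library, with symbols for replicates and lines for geometric means. The Abhd5 ratio is lower in all C6KO libraries of each depot, and the G0s2 ratio separates the genotypes in BAT.

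G0s2 per Pnpla2 was 0.611, 0.410 and 0.451 in BAT WT and 0.395, 0.271 and 0.231 in BAT C6KO. The inhibitor was thus lower per ATGL transcript in BAT of C6KO mice without overlap, by -0.73 on the log2 scale (SE 0.288, exact permutation p = 0.1, adjusted 0.188). In iWAT (-0.13, exact permutation p = 0.4) and eWAT (-0.31, exact permutation p = 0.2) the groups overlapped. Lipe per Pnpla2 was lower without overlap in BAT (-0.38), Mgll per Pnpla2 in iWAT (-0.51) and BAT (-0.39), and Pnpla3 per Pnpla2 in BAT (-1.15), while in eWAT Lipe and Mgll overlapped (-0.07 with SE 0.0983 and -0.02 with SE 0.0822). All of these ratios share Pnpla2, so they are not separate observations.

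The wider pathway was read from 6 lists of genes. Among genes that activate lipolysis (receptors, adenylyl cyclases, protein kinase A), none of 16 was called for iWAT, 1 was for eWAT and 1 for BAT, and the list medians were 0.24, 0.24 and 0.09 on the log2 scale. Adcy6, an adenylyl cyclase, rose in eWAT from 102, 96.5 and 110.2 CPM in WT to 171, 146 and 159 in C6KO (0.62, SE 0.105, adjusted p = 0.0432, edgeR). That call was lost without any 1 of the WT libraries or C6KO library 1 or 3 (adjusted p of 0.0646 to 0.1895), with total counts as the scale (0.0501) and in the fit of 18 libraries (0.158). Adcy3, another adenylyl cyclase, rose in BAT from 145, 107 and 175 CPM to 322, 453 and 352 (1.40, SE 0.227, adjusted p = 0.0249, edgeR), with no overlap. Its call was lost without WT library 1 or any 1 of the C6KO libraries (adjusted p of 0.0781 to 0.122). Adrb3, the main adipocyte β-adrenergic receptor of mice, was not called in any depot, at 81.9 ± 12.3 CPM in iWAT WT and 309.8 ± 317 in C6KO, an SD larger than its mean.

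Among 17 genes that restrain lipolysis (inhibitory receptors and G proteins, insulin signalling, the clearance receptor of natriuretic peptides), 0 were called in either white depot and 1 of the 16 tested in BAT. That gene was Npr3, the clearance receptor, which fell in BAT from 601, 770.4 and 596 CPM in WT to 171, 107 and 100.3 in C6KO (-2.38, SE 0.251, adjusted p = 0.00432, edgeR). The call held without any 1 of the 6 BAT libraries. In eWAT its estimate was 0.73 (adjusted p = 0.135) and in iWAT 0.05 (adjusted p = 0.939). DESeq2 called Npr3 higher in eWAT (adjusted p = 0.00872). The list had a median of 0.07 for iWAT, 0.24 for eWAT and -0.09 for BAT.

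Proteins of the lipid droplet were the list with the highest median in iWAT and eWAT (0.26 and 0.61, over 11 genes tested in each), against 0.07 in BAT. Plin5, a perilipin that holds ATGL and CGI-58 at droplets near mitochondria, rose in iWAT from 18.3, 25.5 and 25.6 CPM to 79.9, 102 and 75.6 (1.90, SE 0.177, adjusted p = 0.00823, edgeR). That call was lost without any 1 of the WT libraries (adjusted p of 0.0538 to 0.0894). In eWAT Plin5 had 7.54 to 13.6 CPM in WT and 14.7 to 46.0 in C6KO (1.56, adjusted p = 0.153), and in BAT, where it is far more abundant, 392 to 632 and 505 to 648 CPM (0.13, adjusted p = 0.839). DESeq2 called Plin5 higher in eWAT (adjusted p = 0.000426). Plin1, the perilipin of the white adipocyte droplet, rose in eWAT from 621, 625 and 634.5 CPM to 1043.5, 961 and 884 (0.62, SE 0.114, adjusted p = 0.0468, edgeR), and Fitm2, which shapes droplet formation, from 42.3 to 48.0 CPM to 64.4 to 79.0 (0.66, adjusted p = 0.0432). Both calls were lost without any 1 of the WT libraries or C6KO library 1 or 3 (adjusted p of 0.0537 to 0.1895) and in the fit of 18 libraries (0.125 for Plin1 and 0.0571 for Fitm2), and that of Plin1 also with total counts as the scale (0.0501). Plin1 is also 1 of the 8 adipocyte markers.

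Cidec, which fuses droplets and binds PLIN1, gave log2 differences of 0.53, 0.73 and 0.61 from iWAT to BAT (edgeR adjusted p of 0.191, 0.0546 and 0.230), with no overlap in any depot. DESeq2 called Cidec higher in eWAT (adjusted p = 3.35e-05) and BAT (0.0477). Hilpda, another inhibitor of ATGL, gave -0.56, 0.61 and -0.75 (edgeR adjusted p of 0.561, 0.339 and 0.183). Like G0s2, it had a positive estimate in eWAT and a negative one in BAT, and neither gene was called.

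**Figure D5:**
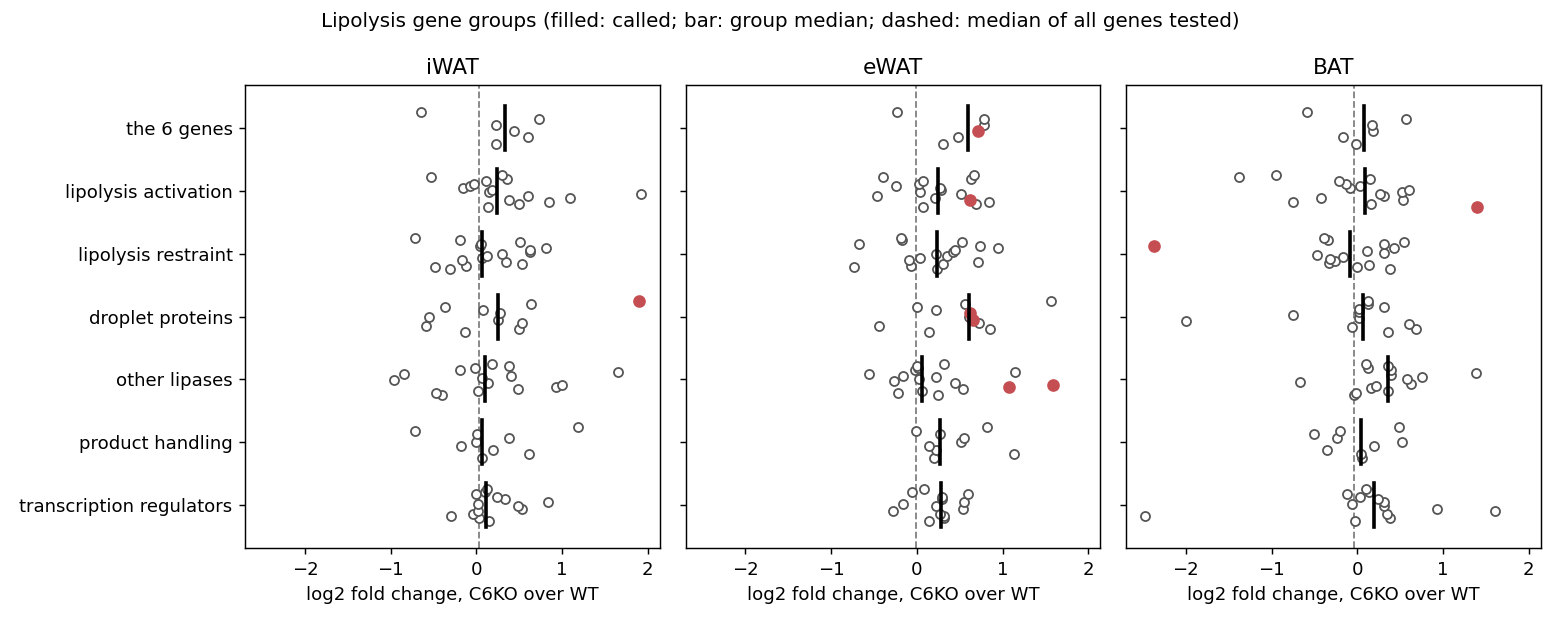
Log2 fold change of C6KO over WT for the 6 genes and the 6 pathway lists in each depot, with 1 point per gene tested, filled points for called genes, bars for list medians and a dashed line for the median of all genes. Called genes are Plin5 in iWAT, Lipe, Adcy6, Plin1, Fitm2, Ces1d and Ces1f in eWAT, and Adcy3 and Npr3 in BAT.

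Among 18 other lipases, 2 were called in eWAT and 0 in iWAT or BAT. Ces1d, a carboxylesterase that hydrolyses triglyceride in adipocytes, rose from 177 to 209.6 CPM in WT to 347 to 503 in C6KO (1.08, SE 0.152, adjusted p = 0.0342, edgeR), and its relative Ces1f from 16.2 to 27.6 CPM to 49.9 to 76.6 (1.59, SE 0.223, adjusted p = 0.0419). Both are also strongly expressed in liver, and the 8 hepatocyte markers summed to 9.93 to 15.3 CPM in eWAT WT and 30.1 to 86.7 in C6KO, with 6 of the 7 tested higher without overlap. Those sums were below the level of Ces1d and in the same range as that of Ces1f, and their part in the differences of both genes was not tested. The calls of both were lost without any 1 of the WT libraries (adjusted p of 0.0645 to 0.165, edgeR) and in the fit of 18 libraries (0.0896 and 0.131), and that of Ces1f also without C6KO library 1 (0.0804) or 3 (0.0545). Reads of the neighbouring Ces1 copies may be shared between them.

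The 10 genes of product handling (fatty acid carriers, glycerol export, re-esterification) and the 14 transcriptional regulators held 0 called genes in every depot. Pparg gave log2 differences of 0.33, 0.30 and 0.25 from iWAT to BAT (edgeR adjusted p of 0.264, 0.149 and 0.727), and Sp1 gave 0.10, -0.06 and 0.14 (0.730, 0.865 and 0.745). For Sp1 the 95% intervals were -0.19 to 0.40, -0.35 to 0.23 and -0.19 to 0.48, and those of Pparg were 0.03 to 0.63, 0.08 to 0.51 and -0.31 to 0.80.

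The genes with the most similar profile to each of the 6 were sought among 14209 genes, by the root-mean-square (RMS) difference between mean-centred log2 CPM over the 18 libraries. Depot and genotype both enter this distance. For Pnpla2 the WT depot differences were -1.57 (eWAT against iWAT), 1.77 (BAT against eWAT) and 0.20 (BAT against iWAT), beside C6KO differences of 0.57 to 0.79. A near profile thus need not mean a shared response to the knockout. Pnpla2 was nearest to Pde3b (0.23), which encodes the phosphodiesterase through which insulin lowers cAMP, and Prkce stood at 0.24. Lipe was nearest to the overlapping 4732471J01Rik (0.09), then to Plin1 (0.10) and Prkd1 (0.18). Mgll was nearest to Wdr93 (0.15), Cdh5 (0.15) and Arhgef28 (0.16), of which Cdh5 is an endothelial marker. Abhd5 was nearest to Pex19 (0.13), Laptm4b (0.15) and Gfer (0.16), and G0s2 to Map1lc3a (0.25), Prkar2b (0.28) and Aldh6a1 (0.28).

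The distance grows with a gene's own spread, which was widest for Pnpla3. The gene nearest to it, Ptger3 (a prostaglandin E2 receptor that restrains lipolysis), stood at 0.37, followed by Slc25a1 (the mitochondrial citrate carrier, 0.52) and Grb14 (0.60). Among the other 5 genes, Lipe ranked 30 in likeness to Pnpla2, G0s2 136, Mgll 187 and Abhd5 302, whereas Pnpla3 ranked 8494 of 14209.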

How the data were processed

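RNA was sequenced from 18 mouse adipose samples, grouped by the labels into 3 depots and 2 genotypes with 3 libraries each. The authors aligned poly(A) reads to mm10 with STAR at default settings, counted exon reads with HOMER (analyzeRepeats.pl, 1 transcript kept per gene) and deposited whole-number counts without normalization, 1 table per depot. Tool versions, annotation and strandedness are not given in the sources used here. The tables name columns by genotype and number only, and the depot was taken from the table. For 2619 genes the kept transcript differs between tables.

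edgeR 4.0.16 (limma 3.58.1, R 4.3.3) was run on these counts with filterByExpr, TMM and robust quasi-likelihood tests, adjusted over all genes tested. C6KO was compared with WT within each depot, and depots and interactions in 1 fit of 18 libraries. The 95% intervals use edgeR's total degrees of freedom, prior plus residual. The fits were tested on simulated data with planted log2 changes of 2, larger than any C6KO estimate of the 6 genes. Recovery of smaller changes was not tested. Of the planted changes, edgeR recovered 94.76 to 100% within depots and 69.85% for BAT minus eWAT. DESeq2 recovered 87.5 to 98.5% and 69.5%. False calls made up 1.09 to 7.33% of calls in edgeR and 7.9 to 16.3% in DESeq2. Whether these rates hold for the sequenced libraries was not tested. Ratios were tested by exact permutation. Alternatives were DESeq2 1.42.0, its size factors, total counts, other filters and fold limits, other samples in the fit, replicate blocks, leaving out each library, and adipocyte markers as the reference. Named genes of the pathway lists were added to these alternatives after seeing the data. RefSeq promoters and GENCODE exons of the same build gave sequences and overlaps. Figures were drawn with matplotlib 3.10.9.

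The 6 genes and the gene lists were chosen with earlier results of these data known. Besides the 6, named genes are those called in a list (all if 5 or fewer), Pparg, Sp1, Plin1, Plin5, Cidec, Hilpda, Adrb3, Casp6 and the 3 nearest profiles of each, of which 1 is not reported here. Lists of other cell types were written as markers: adipocyte, brown adipocyte, macrophage, lymphocyte, skeletal muscle, hepatocyte, endothelial, progenitor, mesothelial and epididymal epithelium.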

Additional observations from a re-analysis of the deposited data

Results flagged for a closer look

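Npr3 differed between depots in its C6KO effect, by -2.43 on the log2 scale for BAT minus iWAT (SE 0.359, 95% interval -3.19 to -1.67, adjusted p = 0.00804, edgeR) and by -3.12 for BAT minus eWAT (SE 0.363, 95% interval -3.88 to -2.35, adjusted p = 0.000584). All 3 C6KO libraries of BAT were below all 3 WT libraries, and all 3 of eWAT were above. Adcy3 differed by 1.32 for BAT minus eWAT (SE 0.287, 95% interval 0.72 to 1.93, adjusted p = 0.0487, edgeR), with all 3 BAT C6KO libraries higher than WT and the eWAT libraries overlapping. The call of Adcy3 was lost in 14 of the 18 fits that left out 1 library (adjusted p of 0.0262 to 0.148 over the 18), while both differences of Npr3 held in all 18. The difference of Adcy3 for BAT minus iWAT was 1.26 (adjusted p = 0.103). Macrophage markers were lower in C6KO in all 3 depots, and muscle markers ran from 43.1 to 33148 CPM within BAT. Npr3 averaged 269 RPKM in iWAT WT, 91.2 in eWAT WT, 104 in BAT WT and 19.8 in BAT C6KO. Lep, an adipocyte marker, was also called lower in BAT and in both of these contrasts, while 5 of the 8 adipocyte markers had positive estimates in BAT. The part of all these markers in the differences was not tested.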

How the results depend on the processing

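Of 1869 values of single genes under alternatives, 1705 kept their direction and, where a threshold was applied, their side of it. This count includes the setting that only drops the fold limit, in which no direction can change. It also includes values relative to adipocyte markers, to which no threshold was applied. DESeq2, which the study used with the same thresholds, called 1, 3 and 1 of the 6 genes higher across iWAT, eWAT and BAT. It called 3.50, 3.16 and 2.89% of all genes with a count there, and 0.0682, 0.799 and 1.67% for eWAT minus iWAT, BAT minus iWAT and BAT minus eWAT. DESeq2 also called higher Ces1d in iWAT (adjusted p = 0.0018), Cidec (3.35e-05), Plin5 (0.000426) and Npr3 (0.00872) in eWAT, and Cidec in BAT (0.0477). Without a low-count filter 3 of the 6 were called in eWAT (1.64% of genes; iWAT 0.168%), and with 10 counts in every library 0.0150% of genes were called in iWAT and 0.283% for BAT minus iWAT. With total counts as the scale 0.450% were called in eWAT. In a fit of all 18 libraries 1 was called in iWAT (2.31% of genes), 0 in eWAT (0.0252%), and 3.31% of genes in BAT. With the 9 WT libraries alone 1 of the 6, Pnpla3, was called lower in BAT than in iWAT. The cause of these shifts was not tested.

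No check had every same-number correlation over 0.1, and the main fits did not pair libraries by replicate number. Same-number correlations averaged 0.0299 (iWAT), 0.072 (eWAT) and -0.381 (BAT) between genotypes. Between depots they averaged -0.00198 to 0.118 (highest for WT eWAT and iWAT, 0.0439 to 0.219). Their mean was above that of unlike numbers in every depot check but C6KO BAT and eWAT (-0.00198 against 0.000803). Such values cannot decide whether depots with the same number share a mouse, and the main depot and interaction tests ignored any such sharing. With the replicate number as a block, 3 of the 6 were called in eWAT (2.78% of genes, Pnpla2 at adjusted p = 0.0302, Mgll at 0.0373) and 0.427% of genes in iWAT, and Pnpla3 for BAT minus iWAT turned to -0.058. The block also ended the calls of Pnpla3 in eWAT against iWAT (0.0733) and Adcy3 in BAT (0.0598), and gave calls for Plin5 (0.0231), Cidec (0.0339) and Hilpda (0.0362) in eWAT and Casp6 in iWAT (0.0423).

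Leaving out 1 library at a time, the 6 genes gave 0 to 2 calls higher and 0 to 1 lower in iWAT (0.0202 to 8.64% of genes, the highest without C6KO library 3), and 0 to 3 higher in eWAT (0.0132 to 2.30%, the highest without C6KO library 2). In BAT 0.202 (without C6KO library 3) to 1.29% of genes were called, and for the differences between depots 0 to 1.49% (eWAT minus iWAT), 0.0866 to 0.6945% (BAT minus iWAT) and 0.1365 to 1.215% (BAT minus eWAT), each highest without iWAT C6KO library 3. Signs turned for uncalled values. In BAT, Abhd5 ran from -0.10 to 0.14 and G0s2 from -0.34 to 0.066, Pnpla3 in eWAT from -1.31 to 0.25, and Abhd5 in BAT against iWAT of WT mice from -0.038 to 0.23. For eWAT minus iWAT, Pnpla2 ran from -0.059 to 0.17, Abhd5 from -0.017 to 0.21, G0s2 from -0.27 to 0.0064 and Pnpla3 from -0.68 to 1.16. For BAT minus iWAT, Mgll ran from -0.17 to 0.11 and Pnpla3 from -0.23 to 0.79, and for BAT minus eWAT Pnpla3 from -0.86 to 0.74.

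Of the other named genes, Sp1 ran from -0.012 to 0.16 in iWAT and from -0.16 to 0.076 in eWAT, Npr3 in iWAT from -0.19 to 0.24, Adcy3 in eWAT from -0.087 to 0.19, and in BAT Adrb3 from -0.20 to 0.65, Ces1f from -0.0078 to 0.52, Plin1 from -0.068 to 0.13 and Plin5 from -0.047 to 0.29.

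Other turns of sign were Npr3 in iWAT with total counts (-0.025), Abhd5 in BAT with DESeq2 (0.000423), without a filter (0.00779) and with 10 counts in every library (0.00159), and with total counts Abhd5 in BAT against iWAT (-0.028) and Mgll for BAT minus iWAT (0.00146). Relative to the summed and to the mean log2 adipocyte markers, Mgll (-0.21, -0.25) and Abhd5 (-0.19, -0.23) turned in iWAT, Abhd5 (-0.38, -0.41) and G0s2 (-0.20, -0.22) in eWAT, and Abhd5 in BAT (0.077, 0.24), and on the mean log2 scale also Lipe in iWAT (-0.027) and G0s2 in BAT (0.10). With 3 libraries per group, the interval of Pnpla3 in eWAT ran from -2.47 to 2.02 and does not settle the sign of a change.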

Other observations

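The marker lists not described above gave these values. The 7 brown adipocyte markers summed to 6821 to 16840 CPM in BAT WT and 10190 to 13620 in BAT C6KO, and to at most 72.02 CPM in any white library, so the tissue named BAT carried its defining RNA. The 6 endothelial markers summed to 700.7 to 858 CPM in eWAT C6KO against 513 to 586 in WT, to 1159 to 1203 against 821 to 1086 in BAT, and to 1095 to 1504 against 1013 to 1409 in iWAT. The 5 progenitor and fibroblast markers summed to 951 to 1462 CPM in iWAT C6KO against 2030 to 2053 in WT, to 2581 to 3050 against 3192 to 3724 in eWAT, and to 445 to 632.5 against 559 to 1020 in BAT. Lymphocyte markers were at 3.69 to 181 CPM and mesothelial markers at 1.12 to 184 CPM. The 4 epididymal epithelium markers summed to at most 0.803 CPM, with Crisp1 and Lcn5 at 0 in every library, and none passed the filter in the comparisons of C6KO with WT.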
